A study of Arabidopsis thaliana with 20 samples.

Results

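A set of 81 Arabidopsis transcripts was higher after 1 h of warmth given shortly after dawn, while the same warmth shortly after dusk left its evening ratio, computed with 1 CPM added, close to 0. The set was chosen on the measured values themselves. A locus was a member when its mean in AM heat exceeded its mean in AM control by a log2 ratio, called AM R here, of at least 0.8, when AM heat lay above AM control in all 4 same-numbered pairs of libraries, when the log2 ratio of PM heat to PM control, called PM R, lay within 0.3 of 0, and when the AM heat mean was at least 5 CPM (read counts scaled to a common library total). R was computed on mean CPM with 1 CPM added to both means, which understates the change of weakly expressed transcripts. Of 21404 loci tested, 81 met the rule (0.378%), and they made up 0.563% of the 14375 loci with a mean of 5 CPM or more in AM heat. Because the rule used AM heat, AM control, PM heat and PM control, the AM and PM responses of the members are given as a description and were not tested.

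All seedlings were of the wild-type accession Col-0, were 14 days old and had grown in cycles of 12 h light and 12 h dark at 23 °C. Time is given as ZT, the number of hours after lights on. AM heat seedlings were held at 30 °C for 1 h from ZT 0.5, in the light, and AM control seedlings stayed at 23 °C over the same hour. PM heat seedlings were held at 30 °C for 1 h from ZT 12.5, in the dark, and PM control seedlings at 23 °C. Each of these 4 groups had 4 replicates, and since the PM treatment fell in darkness, the effect of light and that of the time of day cannot be told apart in them. In a separate experiment the seedlings were moved to constant light (LL) 2 days before treatment at the same times, with 1 library each for LL AM heat, LL AM control, LL PM heat and LL PM control. No label says which seedlings or plates made up a replicate, so the p-values below measure the spread between these libraries.

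Proteins that enter the endoplasmic reticulum (ER) are folded there by chaperones of the HSP70 and HSP90 families, by lectins that hold glycoproteins (calnexin and calreticulin) and by protein disulfide isomerases. When unfolded proteins accumulate in the ER, plant cells raise the transcripts of these helpers through the unfolded protein response, in which the membrane-bound factors bZIP28 and bZIP17 and the spliced factor bZIP60 bind promoter elements such as the ER stress response element (ERSE). Heat in the cytosol acts through a different set of regulators, the heat shock factors, which bind heat shock elements. Many Arabidopsis transcripts also cycle over the day under the circadian clock, of which CCA1 is a dawn-expressed component.

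The 16 light:dark libraries held between 14637914 and 38812441 counted reads (median 20116000), and the 4 constant light libraries between 8594948 and 19957156. Replicates did not repeat each other within sampling noise, with an index of dispersion between 12.0 and 149.6 over the 24 pairs within groups where sampling alone gives about 1. Photosynthetic leaf markers (4 of 4 tested) summed to between 44599 and 69039 CPM in AM heat and between 49460 and 57983 CPM in AM control. The 3 root hair markers summed to between 1.10 and 6.10 CPM in AM heat and between 5.55 and 11.4 CPM in AM control, and to between 1.32 and 9.17 CPM in PM heat and between 6.35 and 19.5 CPM in PM control. Guard cell markers summed to between 38.0 and 47.5 CPM in AM heat and between 47.3 and 56.8 CPM in AM control. Among them KAT1 averaged 20.4 CPM in AM heat and 28.9 CPM in AM control, MYB60 11.8 and 12.0 CPM, and FAMA 10.5 and 9.64 CPM. In the evening the guard cell sums were 31.6 to 45.8 CPM in PM heat and 28.1 to 39.2 CPM in PM control. The epidermis and phloem companion cell sums overlapped between heat and control at both times. The sample labels read whole plant tissue and the protocol aerial tissue. The part of these marker differences in the results below was not tested.

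Among the 81 members AM R ranged from 0.80 to 2.03 with a median of 0.99, whereas PM R ranged from -0.23 to 0.30 with a median of 0.08. The corresponding medians over all loci of 5 CPM or more were 0.10 and 0.07. In the morning contrast 68 of the 81 passed the test across all loci (edgeR, adjusted p under 0.05 and an absolute log2 fold change over 0.5), where 5.2% of all loci were called up, but the rule used this contrast and nothing is read from the count. In the evening contrast 1 was called up, with 7.59% of all loci called up. That member was AT3G55580, at 0.261 CPM in PM heat and 0.0385 CPM in PM control, a fold of 6.79 without the added CPM. All 4 AM heat values lay above all 4 AM control values for 61 members (10.4% of all loci), and above all 8 PM values, heat and control, for 56 members (14% of all loci). The rule used these same values, which favours both orders among the members, so nothing is read from these counts either.

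**Figure D1:**
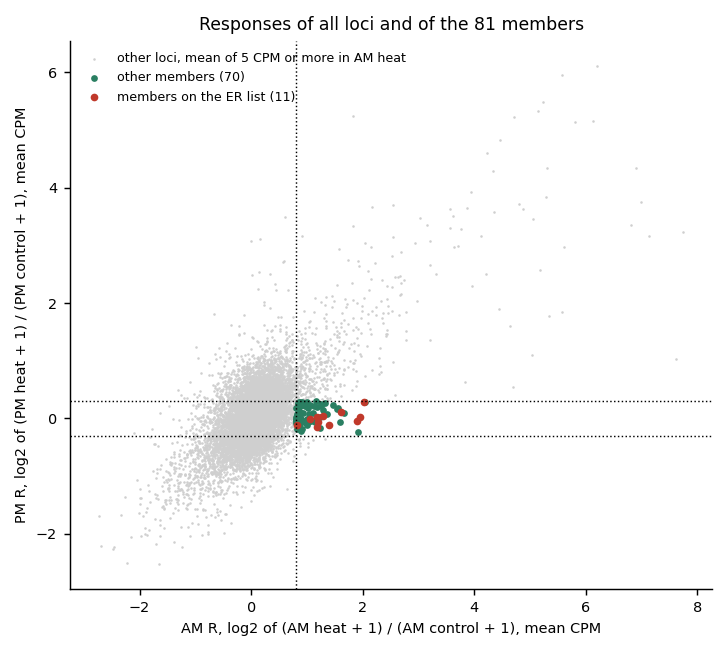
AM R (x axis) against PM R (y axis), both log2 ratios of mean CPM plus 1, for every locus with a mean of 5 CPM or more in AM heat (grey), for the 11 members on the ER list (red) and for the 70 other members (green). The dotted lines mark the thresholds of 0.8 for AM R and 0.3 either side of 0 for PM R; the members fill the strip to the right and reach an AM R of 2.03.

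The edges of the rule cut through a continuum. Just inside the morning threshold lay AT1G28660, AT5G42760, VDAC3, AT5G52380 and TXR1 with AM R between 0.80 and 0.81, and just outside it lay RLP49, LYM3, TCTP, AT1G48460 and AOR with AM R between 0.77 and 0.79. Just inside the evening threshold lay CML41, PIMT2, AT1G31335, AT5G52780 and BIP1 with PM R between 0.29 and 0.30, and just outside it AT1G67365, PUT1, iPGAM2, AAC3 and SPDS3 with PM R between 0.31 and 0.32. A further 456 loci met every other condition but had a PM R of 0.3 or more, and 10 had one of -0.3 or less. The members lay on all 5 nuclear chromosomes (17, 12, 12, 16 and 24 on chromosomes 1 to 5), and 80 of 81 were protein-coding.

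Of the gene lists examined, which were chosen with earlier results of these data known, the ER folding list held the most members. Of its 41 genes for ER folding and the unfolded protein response, all of which were tested, 11 were members. Of all loci tested 0.378% were members. Their AM R ranged from 0.83 to 2.02 (median 1.29) and their PM R from -0.14 to 0.29 (median -0.01). They comprise both major BiP genes, the HSP70 chaperones of the ER lumen, a further ER HSP70 (AT4G16660), the ER HSP90 (SHD, also HSP90-7 or GRP94), calnexin (CNX1), the calreticulins CRT1a and CRT1b, the protein disulfide isomerases PDIL2-2 (PDI10) and PDIL2-3 (PDI9), and the J-domain partners of BiP ATERDJ3B and P58IPK.

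BIP1 (AT5G28540, chr5:10540123-10543558 of TAIR10.1, 6 exons) stood at 529.6, 928, 307 and 439 CPM in AM heat, against 170.1, 194, 103 and 74.7 CPM in AM control, in replicates 1 to 4. In the evening it stood at 236, 222, 136 and 119 CPM in PM heat, against 193, 132, 144 and 116 CPM in PM control. Every AM heat library therefore lay above every other library, and the evening groups overlapped. The mean was 551 ± 268 CPM in AM heat and 135 ± 55.9 CPM in AM control (SD, n = 4 each), a 4.07-fold difference, while PM heat was 1.22-fold PM control.

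BIP2 (AT5G42020), the near-identical other BiP gene, held 315, 633, 204 and 324 CPM in AM heat, against 108, 128, 81.3 and 63.4 CPM in AM control. Its PM heat values were 139.9, 144, 78.3 and 80.5 CPM, against 120.3, 87.1, 127 and 102 CPM in PM control. Reads that fit both copies equally are not counted for either by HTSeq at its default setting, so the levels of both and the ratio between them are uncertain. The higher AM heat values of both copies did not overlap any other group.

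SHD (AT4G24190), the ER member of the HSP90 family, had 459, 743, 230.1 and 310.0 CPM in AM heat, against 251, 245, 151 and 114 CPM in AM control. Its PM heat libraries had 247, 213, 111 and 107 CPM, against 227, 179.7, 152 and 151 CPM in PM control. Here replicates 1 and 2 were high and replicates 3 and 4 low in all 4 groups, and the AM heat and AM control ranges overlapped although each same-numbered pair differed in the same direction. AT4G16660, an HSP70 of the ER related to yeast Lhs1 and mammalian HYOU1, had 159, 281, 137 and 176 CPM in AM heat, against 69.5, 78.9, 69.6 and 65.2 CPM in AM control, with no overlap.

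The lectin chaperones moved alike. CNX1, the membrane-bound calnexin, had 357, 662, 244 and 329.8 CPM in AM heat, against 152, 178, 103 and 87.0 CPM in AM control. CRT1a, a soluble calreticulin, had 267, 394, 204 and 270.0 CPM in AM heat, against 160.3, 153, 124 and 105 CPM in AM control, and CRT1b had 166, 265, 176 and 198 CPM in AM heat, against 112, 106, 132 and 101 CPM in AM control. The AM heat and AM control values of each of the 3 genes did not overlap, and CRT1a was the one of them whose AM heat range (204 to 394 CPM) reached into the PM heat range (138 to 207 CPM).

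PDIL2-2, which forms and reshuffles disulfide bonds, had 29.7, 58.5, 33.6 and 42.4 CPM in AM heat, against 11.4, 11.8, 10.2 and 7.70 CPM in AM control. Its relative PDIL2-3 averaged 82.5 ± 30.1 CPM in AM heat and 35.8 ± 5.15 CPM in AM control. ATERDJ3B, which delivers unfolded clients to BiP, averaged 101 ± 20.7 CPM in AM heat and 40.8 ± 2.86 CPM in AM control. All 3 kept their AM heat values clear of the other 12 libraries. P58IPK, another J-domain protein of the ER lumen, averaged 58.1 ± 28.0 CPM in AM heat and 24.9 ± 5.57 CPM in AM control, and 16.1 ± 5.06 CPM in PM heat and 15.8 ± 1.77 CPM in PM control (SD, n = 4 each).

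**Figure D2:**
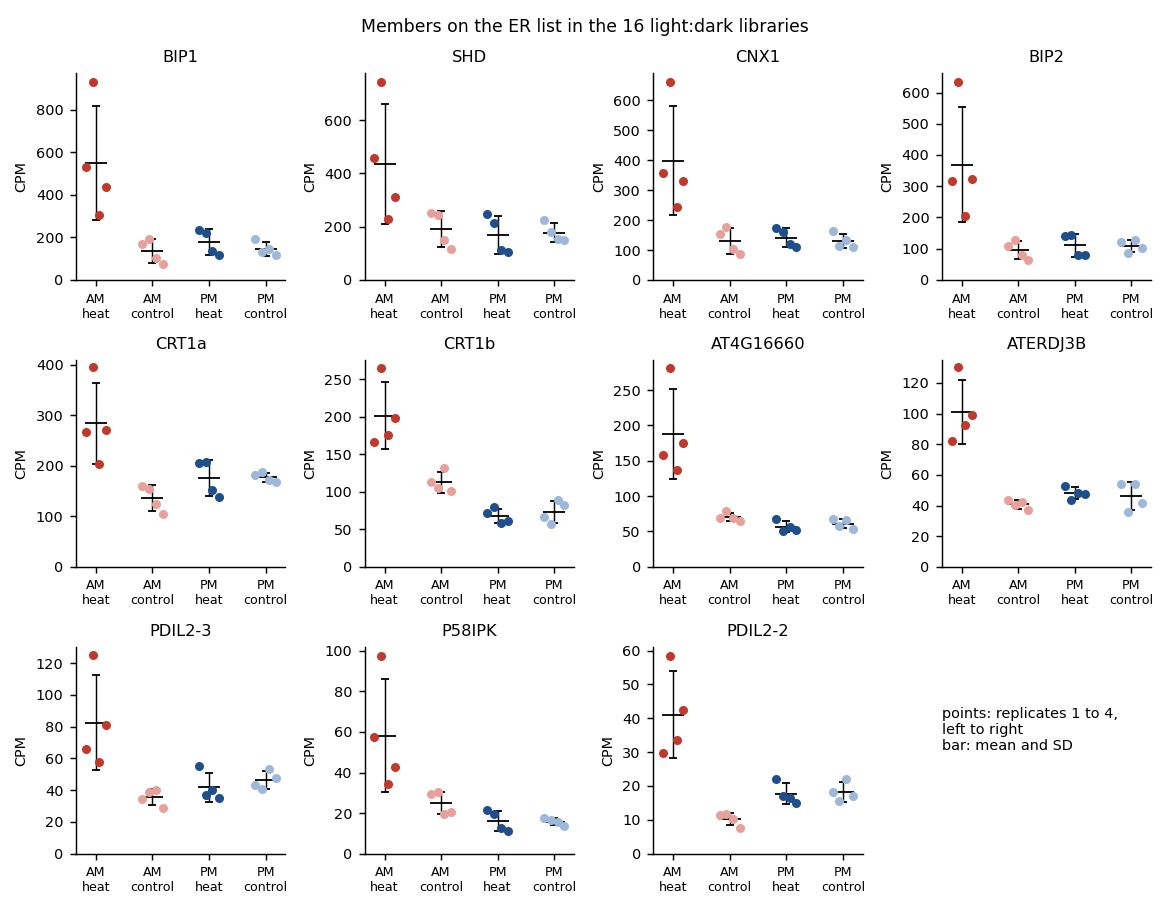
CPM (y axis, from 0, each panel on its own scale) of the 11 members on the ER list in AM heat, AM control, PM heat and PM control; points are replicates 1 to 4 from left to right, and the bar gives the mean and SD. AM heat replicate 2 was the highest of all 16 libraries in each panel, and 9 of the 11 genes had every AM heat value above all 8 PM values.

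AM heat replicate 2 gave the highest value for all 11, and their summed CPM was 2488, 4319, 1721 and 2311 in AM heat replicates 1 to 4, against 1143, 1204, 876 and 705 in AM control. In the evening the sums were 1295, 1194, 829.7 and 777 CPM in PM heat, against 1150.2, 923, 1027 and 904 CPM in PM control. Without AM heat replicate 2 the AM R of the 11 ranged from 0.67 to 1.69 with a median of 1.14, and 10 of the 11 still reached 0.8, the exception being CRT1b at 0.67. Further ER-related members stood outside the list and were picked out after their values were seen. Hrd1B, a ubiquitin ligase of ER-associated degradation, averaged 89.8 ± 28.8 CPM in AM heat and 34.5 ± 11.4 CPM in AM control. AT1G27350, annotated as the ribosome-associated membrane protein RAMP4, averaged 55.7 ± 14.9 CPM in AM heat and 22.3 ± 2.74 CPM in AM control.

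Promoter windows of 250 bases before to 50 bases after the annotated gene start were read from the RefSeq TAIR10.1 assembly for all 81 members and for 21266 tested loci, and searched on both strands. The ERSE was searched with 2 spacings. With 9 free bases between CCAAT and CCACG it was present in 5 members (6.17%) and in 0.480% of the tested loci, and 4 of the 5 were among the 11 ER genes. With 10 free bases it was in none of the 81 members and in 0.0282% of the tested loci, and the name ERSE is used below for the 9-base form. The shorter ERSE-II was in 1 member (0.0799% of the tested loci). The 8 bases TGACGTGG, the core of the unfolded protein response element, were present in 6 members (7.41%) and in 1.85% of the tested loci, and 5 of the 6 were among the 11 ER genes. The ERSE sites of the members are shown first because 4 of the 5 members that hold one are ER genes, with 5 flanking bases on each side, the fixed bases in capitals and the sequence read along the gene's own strand.
AT4G16660 (chr4:9376636-9376664, strand +): tcacaCGTGGaatattttcATTGGtggta
SHD (chr4:12556057-12556085, strand -): ttgctCCAATacaaaactaCCACGtggct
P58IPK (chr5:750037-750065, strand +): ttccaCGTGGgtcataacgATTGGataga
AT5G47420 (chr5:19232752-19232780, strand +): tacaaCCAATgagaatggtCCACGtaatc
CNX1 (chr5:24829856-24829884, strand -): aatgaCGTGGcctgttatgATTGGttagc
The core sites of the unfolded protein response element follow in the same way, and CRT1a holds a pair of them.
CRT1a (chr1:21092795-21092812, strand -): atcagCCACGTCAttatc
CRT1a (chr1:21092713-21092730, strand -): ttaacCCACGTCAgctac
AT4G16660 (chr4:9376675-9376692, strand +): ttattCCACGTCAgtgtc
SHD (chr4:12556092-12556109, strand -): tcgctCCACGTCAagaac
ABCF2 (chr5:3100440-3100457, strand -): tccggTGACGTGGtaatc
BIP2 (chr5:16810655-16810672, strand -): ttggtCCACGTCAtctcc
CNX1 (chr5:24829870-24829887, strand -): ttgaaTGACGTGGcctgt
AT4G16660, SHD and CNX1 carried both elements. In SHD and AT4G16660 both lie directly upstream of the annotated start, and the 250 bases before it are shown with the fixed bases of both elements in capitals.
SHD (chr4:12556059-12556308, strand -): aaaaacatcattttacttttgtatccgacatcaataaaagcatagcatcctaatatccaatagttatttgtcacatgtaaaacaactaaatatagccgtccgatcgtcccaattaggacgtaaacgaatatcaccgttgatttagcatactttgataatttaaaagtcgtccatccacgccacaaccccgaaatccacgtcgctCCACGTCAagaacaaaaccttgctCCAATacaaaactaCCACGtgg
AT4G16660 (chr4:9376449-9376698, strand +): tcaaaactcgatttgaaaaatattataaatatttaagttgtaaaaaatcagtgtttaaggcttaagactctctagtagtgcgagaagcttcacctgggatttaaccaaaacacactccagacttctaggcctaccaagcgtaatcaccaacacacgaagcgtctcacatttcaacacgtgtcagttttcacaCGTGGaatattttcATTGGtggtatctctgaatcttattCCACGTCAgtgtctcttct
The sites in CNX1 and BIP2 begin after the annotated start, so the count of ER members with the ERSE is 3 of 11, and with the TGACGTGG core 3 of 11, when only the bases before the start are searched. The elements also occurred outside the membership. The ERSE was in 36.4% of the 11 ER members and in 16.7% of the 30 other ER list genes (HRD3A, PDI5, UGGT, PDI6 and BI-1), and the core in 45.5% of the 11 and in 10% of the 30 (PDI5, UGGT and NAC089). With only the bases before the start, the ERSE was in 27.3% of the 11 and 13.3% of the 30. The core was then in 27.3% and 6.67%. These differences were not tested. The 5 bases CCACG alone were in 10 of the 11 ER members, in 53.3% of the other ER list genes and in 19.1% of the tested loci. Before the start only, CCACG was in 6 of the 11, in 36.7% of the other ER list genes and in 15.9% of the tested loci.

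Heat shock elements were looked for in 2 arrangements, which are the same read on either strand. TTCNNGAA was in 19 of the 81 members (8.99% of the tested loci), none of them among the 11 ER genes, and GAANNTTC was in 8 members (9.88%, against 11.4% of the tested loci). The members with TTCNNGAA include FKBP53, BBX30, PCME and SYTD. Among them the site of AT3G21660 reads as follows, with the fixed bases in capitals.
AT3G21660 (chr3:7626747-7626764, strand -): gctctTTCaaGAActcta
The G-box CACGTG was in 15 members (18.5%, against 8.68%), the evening element AAAATATCT in 2 (2.47%, against 2.92%) and the CCA1 binding site AAAAATCT in 3 (3.70%, against 7.95%). The remaining letters searched were not used to choose sites. The ABRE ACGTGNC was in 19 members and in 2447 of the 21266 tested loci, TGGGCC in 23 and 3860, the W-box TTGACC in 12 and 3068, CCGAC in 13 and 3409, GATAAG in 11 and 3157, AAACCCTA in 6 and 1162, CCAAT in 45 and 11309, and GACGTC in 1 and 662. Heat shock elements of 3 units, which contain the shorter forms, were in 2 members and in 118 tested loci. The G-box shares the letters CACG with CCACG and the core. A match of letters describes the window and does not show that a factor binds there.

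The other 30 genes of the ER list give the setting in which the 11 members stand. With members included, 23 of the 41 list genes were called up in AM heat over AM control and none down, and 7 were called up and 2 down in PM heat over PM control. Over all loci 5.2% were called up and 8.36% down in the AM, and 7.59% up and 10.6% down in the PM. The 11 members among them were chosen for this pattern. The 30 that were not members had a median log2 fold change of 0.35 in the morning contrast and 0.31 in the evening contrast, where the medians of all tested loci were 0.03 and -0.03. Over all 41 list genes the medians were 0.79 and 0.03. Taking out members, high in the AM and flat in the PM, brings the 2 medians of the remainder together. Gene by gene, AM R still lay above PM R in 23 of the 30. The share of all loci with that order was not computed, and the difference was not tested. Of these 30, 12 were called up in the AM, 7 up and 2 down in the PM, and 6 up at both times. ERDJ3A, a further J-domain protein of the ER, rose at both times, with a log2 fold change of 4.16 (edgeR, adjusted p = 1.88e-04) in the AM and 4.49 (adjusted p = 1.68e-04) in the PM. DER1, a channel component of ER-associated degradation, rose by 1.62 (edgeR, adjusted p = 9.11e-06) and 1.22 (adjusted p = 1.52e-04).

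The transcription factors that drive the unfolded protein response were not members. BZIP28 rose by 0.93 in the AM (edgeR, adjusted p = 0.0143) and by 1.33 in the PM (adjusted p = 0.00164), and BZIP17 rose by 0.89 and 0.65 (edgeR, adjusted p = 0.00274 and 0.0140). BZIP60 passed at neither time, with log2 fold changes of 0.38 (edgeR, adjusted p = 0.131) and 0.42 (adjusted p = 0.0777). SDF2, which works with ATERDJ3B, missed membership on its PM R of 0.38; it rose by 1.35 in the AM (edgeR, adjusted p = 5.30e-05) and did not pass in the PM (0.39, adjusted p = 0.0897). BIP3, the strongly stress-inducible BiP copy, was near the detection limit, with 1.45 ± 1.94 CPM in AM heat and 0.739 ± 0.647 CPM in AM control.

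For the list genes that were not members the difference between the PM and the AM response was also computed. The rule had removed list genes by these same responses, so the results describe the remainder and nothing is read from their number. It passed for PDI11, a protein disulfide isomerase, whose PM response was lower than its AM response by 1.23 on the log2 scale (edgeR, interaction, adjusted p = 0.0474), and for UTR3, a nucleotide sugar transporter of the ER, where it was lower by 1.37 (adjusted p = 0.0280). With the replicate number as a block 6 of the 30 passed, where 3.21% of all loci did. Across all loci 0.397% passed this interaction test without the block, 0.234% with the PM response the higher and 0.164% with the AM response the higher.

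**Figure D3:**
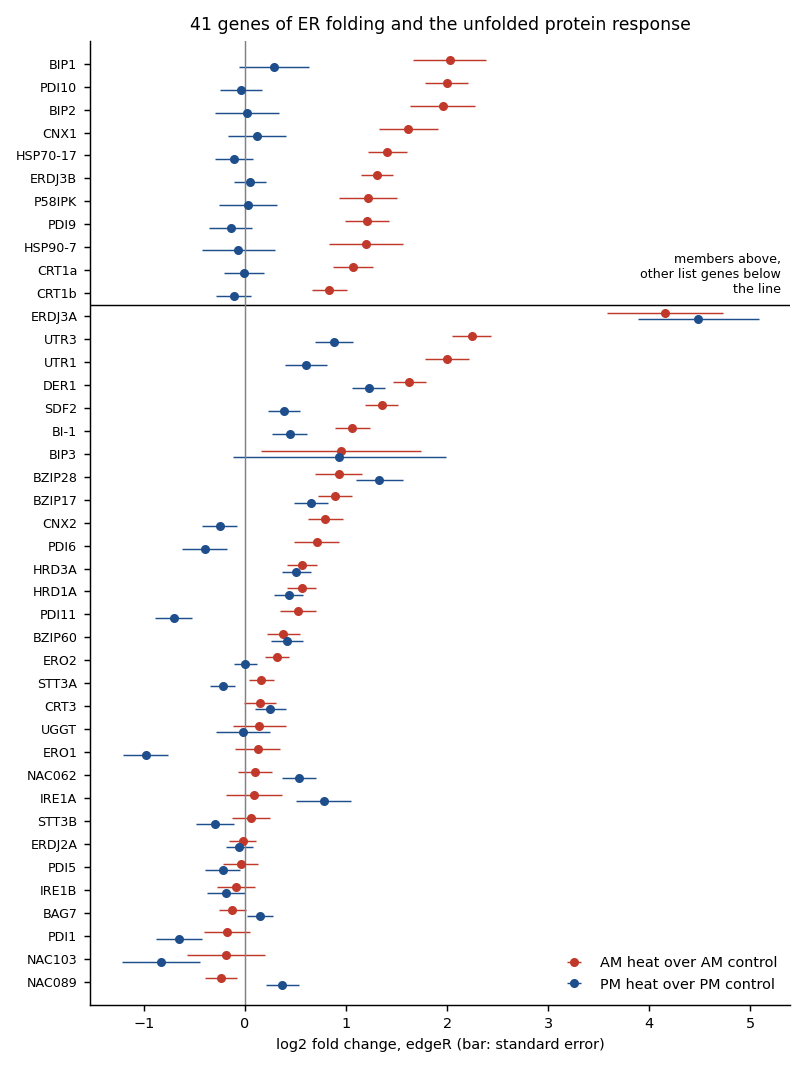
Log2 fold changes from edgeR (x axis, bars are standard errors worked back from the test) of the 41 ER list genes in AM heat over AM control (red) and PM heat over PM control (blue); the 11 members are above the line and the 30 other genes below, each in order of the AM value. Among the other genes ERDJ3A, DER1, BZIP28 and BZIP17 show both values above 0.

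Member counts of the other heat-responsive lists follow, where 0.378% of all loci tested were members. Counts this small are not read as scarcity. Of 29 cytosolic heat shock proteins and co-chaperones, 27 were called up by morning warmth and 24 by evening warmth, and the only member was SQN (CYP40), a co-chaperone of HSP90. SQN had 25.1, 34.6, 20.9 and 25.5 CPM in AM heat, against 10.2, 13.5, 8.75 and 9.68 CPM in AM control, and averaged 16.2 ± 3.66 CPM in PM heat and 13.8 ± 1.93 CPM in PM control. None of 22 organelle chaperones (18 called up at the morning time and 11 at the evening time) and none of the 14 tested of 15 heat stress regulators (7 and 9) was a member. AM R lay above PM R in 21 of the 22 organelle chaperones and in 22 of the 28 cytosolic genes that were not members. It did so in 3 of the 14 regulators. A higher morning ratio was therefore not particular to the ER list. FKBP53, a nuclear histone chaperone of the FK506-binding family that no list held, averaged 75.3 ± 19.1 CPM in AM heat and 32.9 ± 5.92 CPM in AM control.

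The remaining 70 members were of mixed annotation. By product name 1 of the 81 was a kinase (CRK1, 5.46% of the tested loci), 3 were transcription factors (EEL, YY1 and BBX30, 5.41%), 4 were transporters (TXR1, ABCF2, AT5G14890 and VDAC3, 2.75%) and 2 were pentatricopeptide repeat proteins (AT1G80150 and EMB975, 2.49%). No product name of a member matched ribosomal protein (1.48% of the tested loci), peptidase (1.81%), cytochrome P450 (0.855%) or glycosyltransferase (0.663%). A count of 0 among 81 lies close to such shares. All these classes are matches of words in the product name and not full counts of function. They miss members named otherwise, such as CCA1, a transcription factor of the clock. The highest member in CPM was FIB, a plastid fibrillin of lipid droplets and thylakoids, with 2397, 2687, 1169.7 and 1618 CPM in AM heat, against 817, 814, 496 and 539.8 CPM in AM control. In the evening FIB held 196, 277, 140.5 and 123 CPM in PM heat, against 297, 210.3, 62.8 and 79.9 CPM in PM control, in ranges that overlapped. ARD4, an enzyme of the methionine salvage cycle, had 708, 716, 531 and 506 CPM in AM heat, against 348, 329, 227 and 224 CPM in AM control.

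Metabolic members included UGP2, which makes UDP-glucose, at 260.3 ± 41.2 CPM in AM heat and 129 ± 9.38 CPM in AM control. BR6OX2, which carries out the last oxidations of brassinosteroid synthesis, had an AM R of 1.14, and its AM heat values of 37.8, 46.7, 43.9 and 35.7 CPM lay above the 4 AM control values. VDAC3, a pore of the outer mitochondrial membrane, averaged 334 ± 79.4 CPM in AM heat and 190.3 ± 21.3 CPM in AM control. PCME, which removes methyl groups from prenylated proteins, averaged 103 ± 18.7 CPM in AM heat and 36.4 ± 9.69 CPM in AM control, and its 4 AM heat values lay above the other 12.

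The largest AM R belonged to AT3G55580, a protein of the RCC1 repeat family, with 10.1, 10.1, 10.1 and 7.62 CPM in AM heat, against 1.87, 2.04, 1.24 and 1.10 CPM in AM control. Its PM heat values were 0.253, 0.334, 0.264 and 0.193 CPM, against 0, 0.0326, 0.121 and 0 CPM in PM control, so near 0 that the added CPM held its PM R at 0.28 although the plain ratio of the means was 6.79 in the evening and 6.08 in the morning. AT4G29520, annotated as a nucleophosmin, had 31.5, 63.5, 34.2 and 45.0 CPM in AM heat, against 10.6, 13.0, 10.9 and 8.74 CPM in AM control. ABCF2, of the ABC transporter F family, had 42.5, 47.2, 23.8 and 21.5 CPM in AM heat, against 12.0, 17.0, 4.51 and 6.49 CPM in AM control. AT2G41150 had 18.6, 25.2, 30.8 and 33.3 CPM in AM heat, against 6.57, 8.29, 9.08 and 9.13 CPM in AM control, and its neighbour CRK1 was also a member. The AM heat values of each of these 4 genes cleared all other libraries.

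The member that is not protein-coding was the precursor of MIR824, with 8.46 to 19.6 CPM in AM heat, against 2.78 to 7.97 CPM in AM control. Replicates 3 and 4 were higher than 1 and 2 in both groups, the reverse of SHD. SAUR genes, small early targets of auxin, were present as AT4G38840 and AT2G21210, but AT2G21210 overlaps a further SAUR on the same strand and its count may hold reads of both. In all, 4 members overlapped an annotated gene on the same strand, among them EEL, AT1G29465 and AT1G29418.

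CCA1 was the only clock gene among the members, of 16 listed, where 0.378% of all loci tested were members. It had 511, 491, 713 and 535 CPM in AM heat, against 327, 328, 258 and 306 CPM in AM control, with no overlap. In the evening it was close to absent, with 1.72, 1.60, 1.11 and 2.51 CPM in PM heat, against 2.02, 1.53, 1.62 and 2.54 CPM in PM control. LHY, its closest relative, averaged 156 CPM in AM heat and 169 CPM in AM control and did not pass the test (edgeR, log2 fold change -0.12, adjusted p = 0.803).

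The levels of the members at dawn and at dusk without warmth are given as AM control over PM control, with all 4 groups in the fit and adjustment over all loci. Both control groups entered the rule. A locus near 0 in the evening met the PM condition through the added 1 CPM and the level condition through AM heat, which favours members that are high in AM control, and a low AM control value favours a high AM R. The calls are therefore given as a description of the members, with no p-value, and nothing is read from their number. Of the 81 members, 26 were called higher in AM control (14.9% of all loci were), 7 lower (13.8% of all loci) and 48 neither. With the replicate number as a block 32 were called higher (17.5% of all loci) and 11 lower (17.3%), which added 6 and 4 members and dropped none. Among the 11 ER genes 9 were not called, CRT1b was called higher with a log2 fold change of 0.62 and PDIL2-2 lower with -0.82. P58IPK was called higher only with the block (0.63).

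The members with the largest unstressed excess in the AM were low in PM control. BBX30, a B-box microprotein, had 6.11, 5.19, 12.3 and 7.59 CPM in AM control, against 0.0723, 0, 0.0404 and 0.0552 CPM in PM control, a log2 fold change of 7.42 ± 0.47 (SE, edgeR). Only 4 reads over the 4 PM control libraries lie behind it, so the fold is imprecise. CCA1 stood at 7.31 ± 0.26, ABCF2 at 6.23 ± 0.50, AT3G21660, a UBX domain protein, at 5.34 ± 0.68 and AT3G55580 at 5.13 ± 0.49 on the same scale. In all 7 of the 26 had a PM control mean under 1 CPM, where the added 1 CPM holds PM R close to 0.

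The members with the largest unstressed deficit in the AM were AGAL1, CML41, AT5G03120, AT1G28660 and PDIL2-2. AGAL1, an alpha-galactosidase, had 16.7 ± 1.83 CPM in AM heat, against 8.73 ± 0.870 CPM in AM control. It had 26.7, 27.3, 22.8 and 22.7 CPM in PM heat, against 16.7, 22.8, 26.0 and 32.5 CPM in PM control, and AM control was lower than PM control by a log2 fold change of -1.49 ± 0.17 (SE, edgeR). CML41, a calmodulin-like protein, stood at -2.01 ± 0.61, with wide spread, at 4.29, 3.47, 0.392 and 1.04 CPM in AM control, against 13.3, 16.1, 2.43 and 6.24 CPM in PM control. The CML41 call was lost without AM control replicate 4 and without PM control replicate 2. AT5G03120 stood at -1.34 and AT1G28660, a GDSL lipase, at -1.27. Of the 7, the mean of AM heat exceeded that of PM heat in 3.

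**Figure D4:**
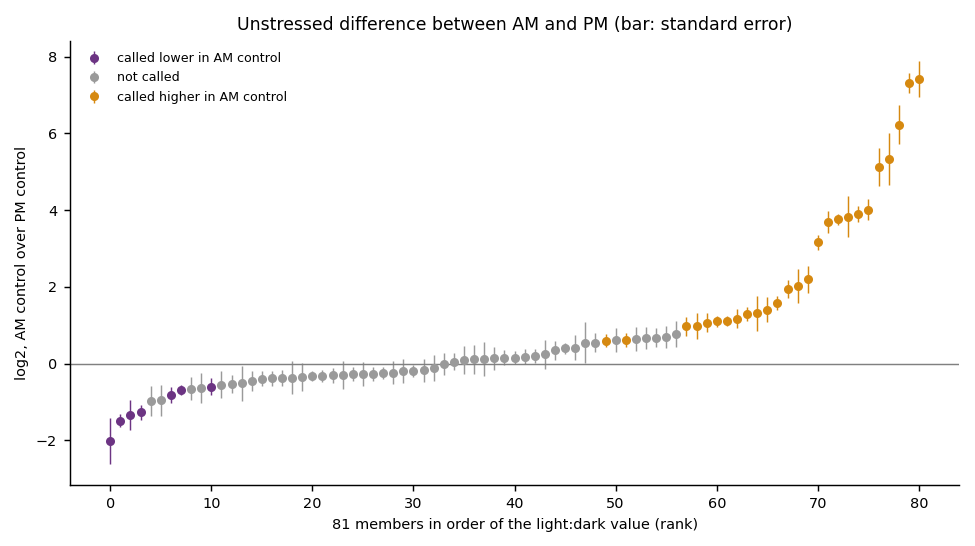
Log2 fold change of AM control over PM control (y axis) of the 81 members in rank order of the light:dark value (x axis), with standard errors; orange points were called higher in AM control (26), purple points lower (7) and grey points were not called (48). The values run from CML41 at -2.01 to BBX30 at 7.42.

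The constant light libraries took no part in the rule and give a separate look at the members, with 1 library per condition and hence no test. LL AM R, the log2 ratio of LL AM heat to LL AM control with 1 CPM added, was above 0 for 70 of the 81 members (48.8% of the loci of 5 CPM or more) and at least 0.8 for 25 (30.9%, against 5.43% of those loci). Its median was 0.49, against -0.01 over all those loci. For the ratio of LL PM heat to LL PM control, none of the 81 reached 0.8 (12.8% of those loci did), 60 were below 0 (46.5%) and 19 were at -0.8 or less (13.4%), with a median of -0.42 against 0.06. With plain library totals 36 members were at -0.8 or less and the median was -0.75, against -0.30 over all those loci, and with upper-quartile scaling the medians were -0.61 and -0.16. The morning ratio exceeded the evening ratio for 72 members (45.7% of those loci) and by 0.8 or more for 48 (13.9%). Both conditions of the light:dark rule, at least 0.8 in the AM and within 0.3 of 0 in the PM, were met by 6 members (0.981% of those loci).

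All 11 ER genes had an LL AM R above 0, between 0.63 and 1.57 (median 1.01), and 8 of them reached 0.8. BIP1 stood at 450.3 CPM in LL AM heat, against 178 CPM in LL AM control, and at 155 CPM in LL PM heat, against 189.7 CPM in LL PM control. PDIL2-2 stood at 43.9 CPM in LL AM heat, against 14.1 CPM in LL AM control, and at 20.2 CPM in LL PM heat, against 18.4 CPM in LL PM control. SHD stood at 264 CPM in LL AM heat, against 136 CPM in LL AM control, and at 84.9 CPM in LL PM heat, against 144 CPM in LL PM control. In 9 of the 11 the LL PM R was below 0, and in all 11 the morning ratio exceeded the evening ratio, by between 0.22 (CRT1a) and 1.78 on the log2 scale.

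Among the other 70 members 17 reached an LL AM R of 0.8, with a median of 0.41. The highest belonged to AT3G55580 (2.41), AT1G58170 (1.79), AT3G48240 (1.63), MIR824 (1.59) and AT1G07500 (1.58). AT3G55580 stood at 16.7 CPM in LL AM heat, against 2.34 CPM in LL AM control. The lowest belonged to CML41 (-0.90), AT5G42760 (-0.82) and AT5G18360 (-0.29). AT5G42760, annotated as a methyltransferase, stood at 32.1 CPM in LL AM heat, against 57.5 CPM in LL AM control, the reverse of its light:dark order. CCA1 had an LL AM R of 0.25, with 408 CPM in LL AM heat and 342 CPM in LL AM control.

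**Figure D5:**
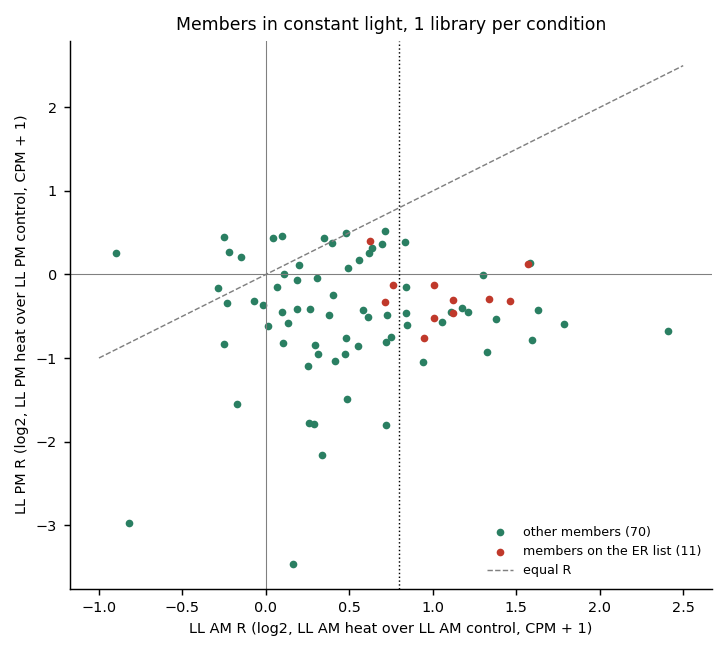
LL AM R (x axis) against LL PM R (y axis), both log2 ratios of CPM plus 1 from 1 library per condition, of the 11 ER members (red) and the 70 other members (green). The dotted line marks 0.8 and the dashed line equal ratios; all 11 ER members lie below the dashed line and to the right of 0.

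The 26 members called higher in AM control were picked for a high light:dark value, so a lower value in other libraries is built into the choice. Of the 26, 24 were also higher in LL AM control than in LL PM control. On the scale of log2 ratios with 1 CPM added, 7 of them reached 0.8 in constant light and 22 in light:dark cycles, with medians of 0.62 and 1.39. Without the added CPM, an alternative chosen after seeing the data, 12 reached 0.8 in constant light and 24 in light:dark cycles. CCA1 stood at 342 CPM in LL AM control, against 41.2 CPM in LL PM control, and AT3G21660 at 16.6 CPM in LL AM control, against 15.3 CPM in LL PM control. Of the 7 called lower, 4 were lower in LL AM control. The shares of all loci with these unstressed differences in constant light were not computed, so nothing is read from these counts. Of the same 26, 6 reached an LL AM R of 0.8.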

How the data were processed

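RNA-Seq was done on poly(A) RNA of aerial tissue in 20 libraries. The authors aligned reads to TAIR10 with TopHat2 2.1.0 and counted reads per locus on the reverse strand with HTSeq 0.6.0; the deposited counts are raw and cover 33601 loci. HTSeq at its default setting does not count reads that align to several places, which affects near-identical copies, and weakly expressed loci carry the larger counting error. CPM were computed on TMM-scaled totals of the loci with at least 10 counts in a light:dark library. Tests used edgeR 4.0.16 in R 4.3.3 (quasi-likelihood, the 4 light:dark groups fitted together, Benjamini-Hochberg adjustment over 21404 loci, adjusted p under 0.05 and absolute log2 fold change over 0.5; the interaction in lists had no fold limit). Standard errors were worked back from the F statistic. DESeq2 1.42.0 was an alternative. All 24 same-numbered pairs of libraries deviated together from their group means (r from 0.12 to 0.79), so the number was also fitted as a block. The best match had the same number in only 11 of the 24, so whether the number marks a true pairing is not settled. On simulated counts the edgeR unstressed test recovered 200 of 200 changed loci, a count that does not measure false calls in the real libraries.

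The members and the gene lists were chosen with earlier results of these data known. Named are members on the ER, cytosolic, organelle and regulator lists, the 10 with the highest AM R, the 10 with the highest AM heat CPM, the 5 either side of each threshold, the 5 largest called unstressed differences in each direction, and the 5 highest and 3 lowest LL AM R. Hrd1B, AT1G27350, FKBP53, UGP2, BR6OX2, PCME, SYTD, CRK1, EEL, YY1, AT4G38840 and AT2G21210 outside this rule were named after their values were seen. Also outside it, AT5G47420 was named for its ERSE site and AT5G14890, AT1G80150 and EMB975 for their product names. AT1G29465 and AT1G29418 were named for an overlapping gene. Promoters were read from RefSeq TAIR10.1 with Python 3.11.15 by locus, whereas counts rest on TAIR10. Alternatives were RLE and upper-quartile scaling, other filters, pseudocounts and medians, DESeq2, the block, each library left out, and a shorter promoter window. A planned search of protein ends for ER retention signals was not run.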

Additional observations from a re-analysis of the deposited data

Results flagged for a closer look

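Of 132 groups of 4 replicates checked for the 33 named members, 4 held a replicate far from the other 3, where chance alone gives about 1 in 20. AT3G55580 had 7.62 CPM in AM heat replicate 4, against 10.12 to 10.13 CPM in the other AM heat replicates. AT2G41250 had 13.0 CPM in PM heat replicate 4, against 10.96 to 11.07 CPM in the others. AT1G28660 had 26.8 CPM in AM heat replicate 2, against 20.2 to 20.9 CPM in the others. AT5G42760 had 2.51 CPM in PM control replicate 3, against 3.54 to 3.62 CPM in the others.

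In 12 list genes that were not members the PM response differed from the AM response (edgeR, interaction, adjusted p under the threshold of 0.05). Across all loci 0.397% passed. The rule had taken out list genes by these same responses, so nothing is read from the number. On the log2 scale, PM response minus AM response, the difference was -1.23 for PDI11 and -1.37 for UTR3 of the ER list. It was -4.60 for HSP17.4, -6.75 for HSP17.6C, -3.23 for HSP17.6B, -2.59 for HSP15.7 and -2.70 for HSA32 of the cytosolic list. Among clock genes it was 3.20 for PRR7, 1.95 for TOC1, 3.24 for GI, 1.89 for RVE1 and 2.88 for LNK1.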

How the results depend on the processing

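Membership depended on the processing more than the counts show. There were 75 members under RLE scaling (all 75 shared with the 81), 74 under upper-quartile scaling (48 shared), 66 with 2 CPM added (60 shared) and 87 with medians (65 shared). Leaving out single libraries gave 74 to 107 members, and leaving out all 4 libraries of a replicate number, an alternative chosen after seeing the data, gave 66 to 97. Between 9 and 12 ER list genes were members throughout. Upper-quartile scaling moved the median AM R and PM R of all loci by -0.10 and -0.13, and using plain library totals moved the median LL PM R by -0.36. The number of members with an LL PM R of -0.8 or less was 19, and 36 with plain totals. The unstressed counts of 26 and 7 became 32 and 11 with the replicate block, and ranged from 24 to 29 and from 5 to 8 when single libraries were left out; the CML41 call was lost without AM control replicate 4 or PM control replicate 2. The other 9 of the 10 largest unstressed calls were kept under every alternative run for them, and P58IPK was called only with the block. The evening element was in 1 member when only bases before the start were searched. The counts of list genes called up after warmth stayed within 1.5 times under all alternatives run, for example 19 to 24 ER list genes up after morning warmth and 5 to 9 after evening warmth without single libraries, and 24 and 9 with the block. The interaction count moved further with the block, to 6 where it was 2 for the other ER list genes and to 6 where it was 0 for the organelle list. Depth limits members near 5 CPM and the evening values of transcripts under 1 CPM.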
